A study of Mus musculus with 8 samples.

Results

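The 829 regions described here are broad H3K79me2 domains of vehicle-treated mouse spermatogonial stem cells that, in treated cultures, still held a peak after the DOT1L inhibitor EPZ5676. They were chosen as control peaks on chromosomes 1 to 19 that were wider than 20000 bp and overlapped at least 1 bp of an EPZ5676 peak. They made up 829 of the 1573 broad autosomal control domains and 829 of all 47774 control peaks. Width, overlap and control enrichment of a domain are thus values that chose it, or come from the same contrast, and they are given as a description without a test.

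Germ cells of the B6.129S7-Gt(ROSA)26Sor/J mouse, which carries a LacZ reporter in every tissue, were isolated at 7 days of age and kept for 2 months on SNL 76/7 feeder cells with 10 ng/mL GDNF and 0.5 ng/mL FGF2. Control and treated cultures shared this origin and differed in the addition of 2 µM EPZ5676 for 7 days, and all were fixed in 1% formaldehyde for 10 min. The vehicle of the control is DMSO in the protocols and EtOH in the sample descriptions. Each of the 4 groups (H3K79me2 and input, control and EPZ5676) had 2 samples, but 1 peak list stood for each H3K79me2 group, so replicate error is unknown and conditions could not be compared by a test. No step that removed the feeder cells, a mouse fibroblast line, is named, and neither the depth of the libraries nor the pooling of replicates is given in the sources used here.

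H3K79me2 is a methyl mark on the globular core of histone H3, placed by DOT1L, the only known H3K79 methyltransferase of mammals. DOT1L travels with elongating RNA polymerase II in complexes with AF9, ENL and AF10, and the mark lies over the transcribed body of active genes, densest downstream of the start and fading along the gene. EPZ5676 competes with S-adenosylmethionine, the methyl donor, for the DOT1L active site, and the mark is lost as histones are replaced and cells divide.

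The sequences just upstream of the gene start are shown for 3 of the domains described below, since most domains began a short way downstream of such a start. They are the 250 bases before the start, 5′ to 3′ on the strand of the gene, from RefSeq (GRCm38.p6, the assembly also named mm10), with every CG pair in capitals. Igf1r lies at chr7:67952007-67952256 (plus strand, domain edge 451 bp after the start), Ski at chr4:155222536-155222785 (minus strand, 157 bp) and Trio at chr15:28025849-28026098 (minus strand, 675 bp). None of the 3 windows held a base of an EPZ5676 peak.
Igf1r: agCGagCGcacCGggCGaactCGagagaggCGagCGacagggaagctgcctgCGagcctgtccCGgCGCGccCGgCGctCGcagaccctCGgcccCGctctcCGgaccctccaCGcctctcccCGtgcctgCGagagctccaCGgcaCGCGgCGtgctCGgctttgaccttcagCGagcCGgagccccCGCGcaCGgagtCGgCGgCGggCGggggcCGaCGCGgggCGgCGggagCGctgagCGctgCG
Ski: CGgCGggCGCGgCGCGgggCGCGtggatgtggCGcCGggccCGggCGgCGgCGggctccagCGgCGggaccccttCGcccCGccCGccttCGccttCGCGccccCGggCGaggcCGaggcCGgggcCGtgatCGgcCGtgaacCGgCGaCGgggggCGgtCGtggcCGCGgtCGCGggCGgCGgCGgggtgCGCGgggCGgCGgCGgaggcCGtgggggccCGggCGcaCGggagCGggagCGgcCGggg
Trio: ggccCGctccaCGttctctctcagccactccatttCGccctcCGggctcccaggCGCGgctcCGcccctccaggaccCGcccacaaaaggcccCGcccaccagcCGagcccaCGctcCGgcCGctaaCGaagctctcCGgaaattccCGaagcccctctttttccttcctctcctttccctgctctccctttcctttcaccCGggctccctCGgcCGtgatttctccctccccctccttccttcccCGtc
These windows held 42 CG pairs (Igf1r), 53 (Ski) and 20 (Trio).

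The next 3 sequences are shown because they are the exceptions. Of 888 annotated start windows (250 bases before to 50 after a start) of the genes under the domains, 190 lay at least partly under a domain and 3 touched an EPZ5676 peak inside it. All 3 were starts inside the gene span rather than at its beginning. With only the window nearest the gene start, an EPZ5676 peak touched 1 of 653 genes under the domains (0.153%). The share was 1 of 537 (0.186%) for genes under broad domains without such a peak and 9 of 16457 (0.0547%) for all autosomal protein-coding genes. Nothing is read from these counts. The Rxra window at chr2:27709042-27709291 (plus strand) belonged to a start 32847 bp into the gene and lay entirely under an EPZ5676 peak of 1229 bp (fold 2.70). At Capzb, the gene of the actin capping protein beta subunit, the window chr4:139193861-139194110 (plus strand, 1212 bp into the gene) lay entirely under a peak of 2189 bp (fold 2.93). At Tab2, the gene of an adaptor of the TAK1 kinase, 76 bases of chr10:7953066-7953315 (minus strand, 3190 bp into the gene) lay under a peak of 483 bp (fold 2.63).
Rxra: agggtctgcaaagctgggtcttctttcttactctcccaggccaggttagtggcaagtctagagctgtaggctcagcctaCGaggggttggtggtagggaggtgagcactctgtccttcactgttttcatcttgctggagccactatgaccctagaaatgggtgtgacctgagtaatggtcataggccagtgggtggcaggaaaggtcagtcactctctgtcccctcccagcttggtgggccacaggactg
Capzb: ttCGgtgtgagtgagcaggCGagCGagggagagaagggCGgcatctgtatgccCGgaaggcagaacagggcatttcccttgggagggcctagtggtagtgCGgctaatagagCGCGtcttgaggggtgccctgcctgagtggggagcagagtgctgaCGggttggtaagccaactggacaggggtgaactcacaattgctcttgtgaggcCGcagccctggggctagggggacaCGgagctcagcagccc
Tab2: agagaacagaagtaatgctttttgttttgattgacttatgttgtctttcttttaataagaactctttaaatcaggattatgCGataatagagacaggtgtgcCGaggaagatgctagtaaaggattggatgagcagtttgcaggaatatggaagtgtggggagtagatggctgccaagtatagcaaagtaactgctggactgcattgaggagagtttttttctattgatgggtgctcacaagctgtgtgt
These inner windows held 1 CG pair (Rxra), 11 (Capzb) and 2 (Tab2), fewer than the 3 upstream windows above.

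A start window could be matched for 653 of the 804 genes under the domains. With 1 window of 300 bases per gene, the median number of CG pairs was 30, against 28 for 537 genes under broad domains without an EPZ5676 peak and 14 for 16457 autosomal protein-coding genes. The letters GGCGGG (or CCCGCC on the other strand; the motif holds a CG pair itself) were found in 77.2% of the windows of genes under the domains, in 75.0% of those under broad domains without a peak and in 46.6% of all. CCAAT or its reverse ATTGG was found in 32.5%, 36.3% and 39.1%, and TATAAA or TTTATA in 3.06%, 3.72% and 13.5%, in the same order. Start windows of both kinds of broad domain were close to each other in these letters and differed from the average gene in the same direction.

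The length of a domain still under called EPZ5676 peaks was small. The lowest deposited −log10 p was 4.03 for EPZ5676 peaks and 2.36 for control peaks, and depth is unknown. The lowest −log10 q was nearly the same in both lists, 1.04 for EPZ5676 and 1.05 for control peaks. A stretch without a called peak is thus not shown to have lost the mark. The 829 domains covered 31.4 Mb, or 18.8% of the 166.5 Mb of autosomal control peaks, and EPZ5676 peaks covered 1.34 Mb of it, or 4.26%, beside 1.74% of the length of all autosomal control peaks. They held 2243 EPZ5676 peaks, which is 24.4% of the 9182 peaks in that list and 43.8% of the 5119 that overlapped any control peak. The background for these counts is that 6.62% of autosomal control peaks of any width overlapped an EPZ5676 peak (3095 of 46767), against 52.7% of the broad ones (95% Clopper-Pearson interval 50.2 to 55.2%). A wide domain offers more bases to overlap, and nothing is read from that contrast. In a bulk culture, a mark kept in fewer cells and less mark in each cell cannot be told apart.

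The median domain kept 2 EPZ5676 peaks (quartiles 1 and 3, highest 26) that together covered 1129 bp (quartiles 527 and 2193 bp, range 147 to 16132 bp). A single peak remained in 290 domains, or 35.0% (31.7 to 38.3%), whereas 203 kept 2, 135 kept 3 and 83 kept 4. Another 105 domains held 5 to 9 peaks and 13 held 10 or more. The 118 domains with at least 5 peaks contained 810 of the 2243 peaks, or 36.1%. The covered share of a domain had a median of 3.32% (quartiles 1.72 and 6.36%, range 0.135 to 23.8%), with 81 domains at or above 10% and 107 below 1%.

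**Figure D1:**
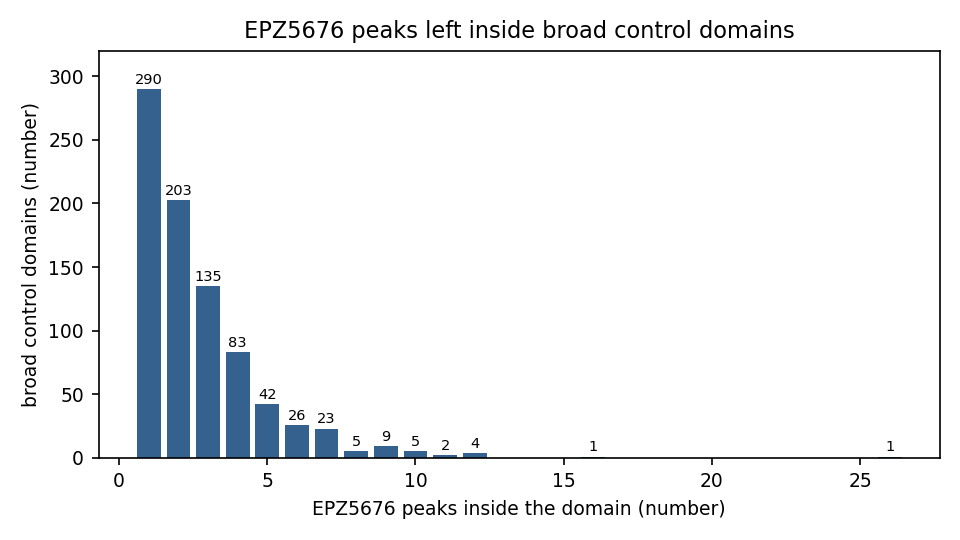
Number of broad control domains (vertical axis) by the number of EPZ5676 peaks inside them (horizontal axis), with the number of domains written above each bar. The bar for 1 peak holds 290 of the 829 domains, and the 2 domains farthest to the right hold 16 and 26 peaks.

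Every one of the 2243 peaks lay entirely inside its domain, and none crossed a domain edge. The peak midpoint nearest to an edge was 281.5 bp from it and the median distance was 7425 bp. Neighbouring EPZ5676 peaks of 1 domain were separated by a median of 2580 bp (quartiles 1087 and 6445 bp), and 54.7% of the gaps were under 3000 bp. The remnants, meaning the called EPZ5676 peaks, were thus short intervals inside the control domain that did not reach from one edge. Signal between the called peaks was not read, so the shape of any weaker mark there is unknown.

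These called peaks were weakly enriched. Their median width was 459 bp, their median fold over background 2.76 (range 2.37 to 3.59) and their median deposited −log10 q 1.46 (range 1.05 to 4.44). In other control peaks, 2876 EPZ5676 peaks had a median width of 462.5 bp and fold of 2.78. The 4063 EPZ5676 peaks outside all control peaks were narrower, with a median of 343 bp and a fold of 2.73. Peaks of at least 1000 bp made up 13.4% inside the domains, 14.3% in other control peaks and 1.58% outside. With EPZ5676 peaks limited to a −log10 q of at least 2, only 142 of the 829 domains kept a peak, so most of these domains rest on peaks near the lower limit of the list.

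Among the 10 widest domains, that of Igf1r, the receptor for insulin-like growth factors, measured 175983 bp (chr7:67952708-68128690, mm10, fold 5.16) and kept 12 EPZ5676 peaks covering 5655 bp. These peaks lay between 3900 and 123360 bp after the gene start, were 179 to 901 bp wide, and 9 of them lay within the first 41679 bp. Rbfox2, which encodes a splicing regulator, had a domain of 150918 bp with 9 peaks. At Ankrd11, a chromatin regulator gene, 143341 bp held 12 peaks covering 6985 bp. The domain of Med13l, a subunit gene of the Mediator kinase module, ran 121745 bp (chr5:118561041-118682785, fold 6.05) with 16 peaks covering 11435 bp. Width and number of remnants did not go together in every case. Tspan5, a tetraspanin gene, kept 2 peaks in 117590 bp, and Ext1, which encodes a heparan sulfate polymerase, kept 1 peak of 158 bp in 117219 bp. The other 4 of the 10 were Rere (127114 bp, 3 peaks), Agap1 (124564 bp, 6 peaks), Cmip (123071 bp, 11 peaks) and Ptprg (120021 bp, 7 peaks).

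Trio, which encodes a guanine nucleotide exchange factor for small GTPases, stood apart with 26 EPZ5676 peaks in 100330 bp (chr15:27924844-28025173). They covered 16132 bp, or 16.1% of the domain, and were spread from 2684.5 to 97258.5 bp after the start, while the control fold of this domain (3.89) was below the median of the 829. Individual Trio peaks were 165 to 1735 bp wide with folds of 2.64 to 3.19, and 5 of the 26 had a −log10 q of at least 2. After Trio and Med13l came Fbxw11, an F-box subunit gene of SCF ubiquitin ligases, Rxra, the retinoid X receptor alpha gene, Igf1r and Ankrd11 with 12 peaks each. Ago2, the Argonaute gene, and Cmip had 11, and Srgap2, a GTPase-activating protein gene, and Larp1, an RNA-binding protein gene, had 10.

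**Figure D2:**
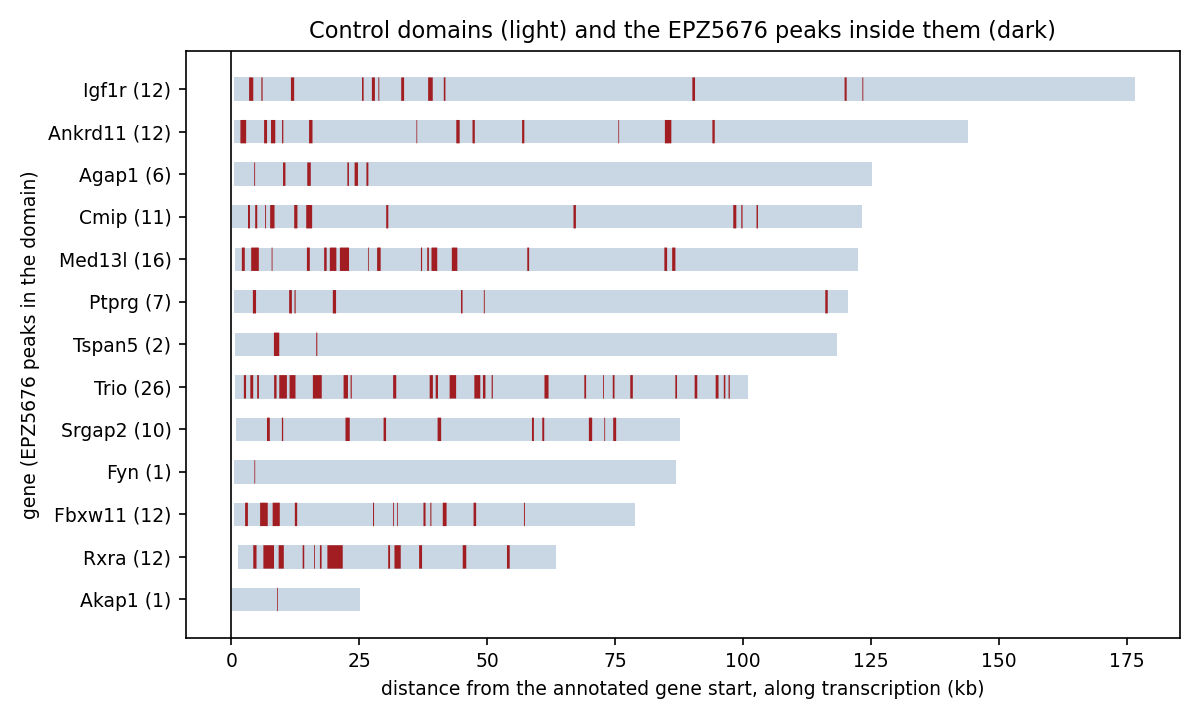
Control domains (light bars) and the EPZ5676 peaks inside them (dark), drawn to scale against the distance from the annotated gene start in kb along transcription, with the number of EPZ5676 peaks in brackets. Shown are the named domains of known strand that are among the widest, those with the most peaks or those with the shortest overlap, and that begin within 2 kb of the start: Trio carries 26 peaks along the whole domain, Agap1 6 near its start and Fyn 1.

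Coverage singled out other genes. The largest covered shares were at Dlg5, a cell polarity scaffold gene (23.8% of 31538 bp, 9 peaks), and Ski, a corepressor of SMAD proteins (23.8% of 40435 bp, 9 peaks). Siah1a, a ubiquitin ligase gene, followed with 23.5% of 22826 bp in 2 peaks, 1 of them 4323 bp wide. Nfix, a nuclear factor I gene, kept 9785 bp in 5 peaks (22.9% of 42739 bp), and its widest peak of 4650 bp was centred 5206 bp after the start. Irf2, an interferon regulatory factor gene, kept 22.6% of 27841 bp. By covered length, Trio and Med13l were followed by Rxra (10880 bp), Ago2 (10048 bp), Nfix, Dyrk1a, a protein kinase gene (9700 bp), Ski (9605 bp), Mprip, a myosin phosphatase interactor gene (7962 bp), Dlg5 (7494 bp) and Ankrd11.

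Ski also had the highest control fold of the 829 (9.81, −log10 q 54.7). Epn2, an endocytic adaptor gene, came next at 8.94 with 2 peaks, then Larp1 at 8.92, Micos10, a gene of the mitochondrial cristae complex, at 8.76 with 5 peaks, and Rap1b, a small GTPase gene, at 8.73 with 2 peaks covering 482 bp. At the other end, single peaks of 147 bp were the whole remnant at Fyn, a Src-family kinase gene (domain of 86215 bp), Akap1, a kinase anchor gene (25031 bp), Axin1, a scaffold gene of the beta-catenin destruction complex (43538 bp), and Tti1, a cofactor gene of PI3K-related kinases (33844 bp). The last domain overlapped 2 protein-coding genes, and 19446 bp of it lay on Tti1. Mtmr3, a phosphoinositide phosphatase gene, kept 149 bp of 20390 bp. Control enrichment and the share left did not rank alike in these cases: Rap1b and Akap1, at folds of 8.73 and 7.11, kept less than 2% of their length, and Dlg5, at 3.06, kept 23.8%.

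Chosen after their values were seen, the widest EPZ5676 peaks inside the domains lay at Arid1b, a BAF complex subunit gene (4794 bp), Nfix (4650 bp), Siah1a (4323 bp), Nfatc3, a transcription factor gene (3991 bp), and Celf1, an RNA-binding protein gene (3723 bp). The highest EPZ5676 folds were 3.59 at Stt3b, an oligosaccharyltransferase gene, 3.50 at Prdm2, 3.45 at Cacna1c, a calcium channel gene, and 3.41 at both Lmnb1, the lamin B1 gene, and Smurf2, a ubiquitin ligase gene. These 5 strongest peaks were 227 to 831 bp wide, so width and enrichment picked different peaks.

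Compared with the 744 broad autosomal domains without an EPZ5676 peak, the 829 were somewhat wider and more enriched in the control. Their median width was 31732 bp (quartiles 24696 and 43783 bp) against 28084 bp (23259 and 36664 bp). The median control fold was 5.00 (4.08 and 5.99) against 3.88 (3.27 and 4.69), and the median −log10 q 17.5 against 10.2, so the ranges overlapped widely. In 4 equal-sized groups of broad domains by control fold, 26.7%, 45.3%, 58.0% and 80.7% kept a peak from the lowest to the highest, and EPZ5676 peaks per 100 kb rose from 2.12 to 2.99, 3.97 and 6.95. By width, 46.4% of domains of 20 to 25 kb kept a peak and 79.2% of those over 100 kb (19 of 24), while peaks per 100 kb ranged between 3.47 and 4.57 over all 6 width classes with no order. The number of remnants per length was higher in each next group by control fold and had no order by width.

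**Figure D3:**
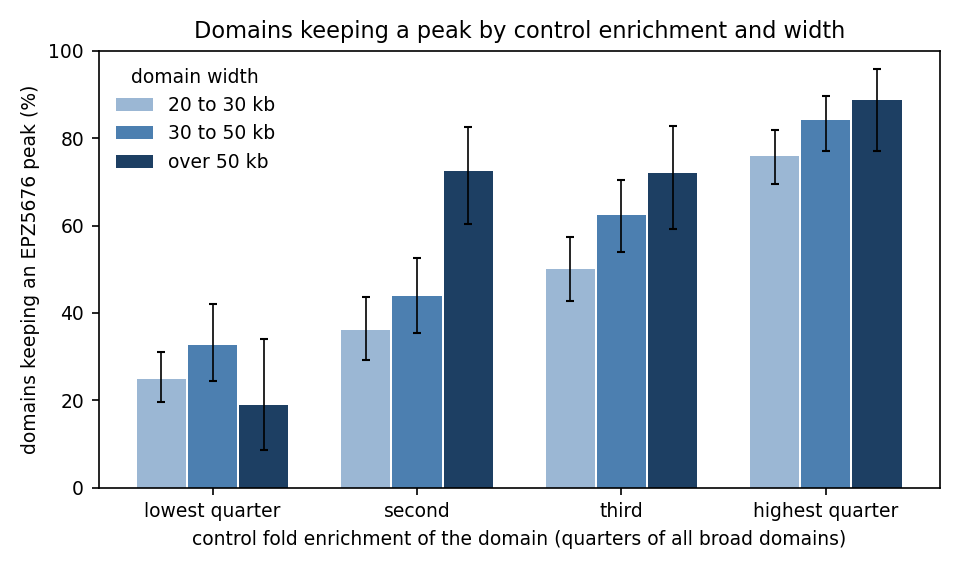
Share of broad control domains that kept an EPZ5676 peak (vertical axis, percent) in 4 equal-sized groups by control fold enrichment (horizontal axis) and 3 width classes (colours). Bars start at 0 and error bars are exact 95% Clopper-Pearson intervals, which cover the sampling of domains only: among domains of 20 to 30 kb the share was 25.0% in the lowest and 76.0% in the highest group.

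Within each width class the share was higher in the highest group by fold than in the lowest. Among domains of 20 to 30 kb, 58 of 232 in the lowest fold group kept a peak and 149 of 196 in the highest. Among those over 50 kb, 8 of 42 did so in the lowest group and 47 of 53 in the highest, while the 2 groups between were alike (50 of 69 and 44 of 61). The 5 widest broad domains without any EPZ5676 peak lay over Auts2 (130030 bp, fold 2.86), Zbtb16 (127978 bp, 5.11), Bnc2 (119350 bp, 4.49), Glis3 (109413 bp, 3.17) and Arhgap26 (102145 bp, 3.03). Glis3 also lay under another broad domain that did keep a peak (108061 bp, fold 4.77). Zbtb16 encodes PLZF, a transcription factor of undifferentiated spermatogonia, and its fold was above the median of the domains that kept a peak. The share keeping a peak ranged from 40.0% on chromosome 14 (24 of 60) to 69.1% on chromosome 3 (47 of 68). Chromosomes X and Y had 9 broad control domains and the EPZ5676 list had no peak (0) on either. That absence covers both whole chromosomes, inside and outside control peaks, so nothing is read from it for these 9 domains.

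The remnants lay towards the start of the gene. Strand was known for the gene of largest overlap of 673 domains, which held 1844 EPZ5676 peaks. Cut into 3 equal sections from the gene-start side, these domains had 1193 of the peak midpoints in the first section (64.7%, 62.5 to 66.9%), 477 in the middle (25.9%) and 174 in the last (9.44%). Cut into 10 sections, the second held most with 22.7% and the last fewest with 0.868%. In the 235 of these domains with a single peak, it was in the first of the 3 sections in 175 (74.5%), in the middle in 44 and in the last in 16. Equal density would put the same share in each section. Control signal along a domain was not read, so whether it falls from the start in the same way is unknown. Peaks of 1 domain share their gene, so the interval is too narrow.

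Measured in bases, the remnants were densest from 2 to 5 kb after the start. The 523 domains whose edge lay within 2 kb of the annotated start held 1490 EPZ5676 peaks. Density was 2.28 peaks per 100 kb of domain in the first kb, where the domains had only 0.263 Mb because most began inside it, 11.8 from 1 to 2 kb, 22.9 from 2 to 5 kb and 15.8 from 5 to 10 kb. It then declined to 7.02 from 10 to 20 kb, 3.35 from 20 to 40 kb and 2.08 beyond. The first remnant of a domain was centred a median of 4008.5 bp after the start (quartiles 2540 and 6238 bp), and 836 of the 1490 (56.1%) lay within 10 kb.

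**Figure D4:**
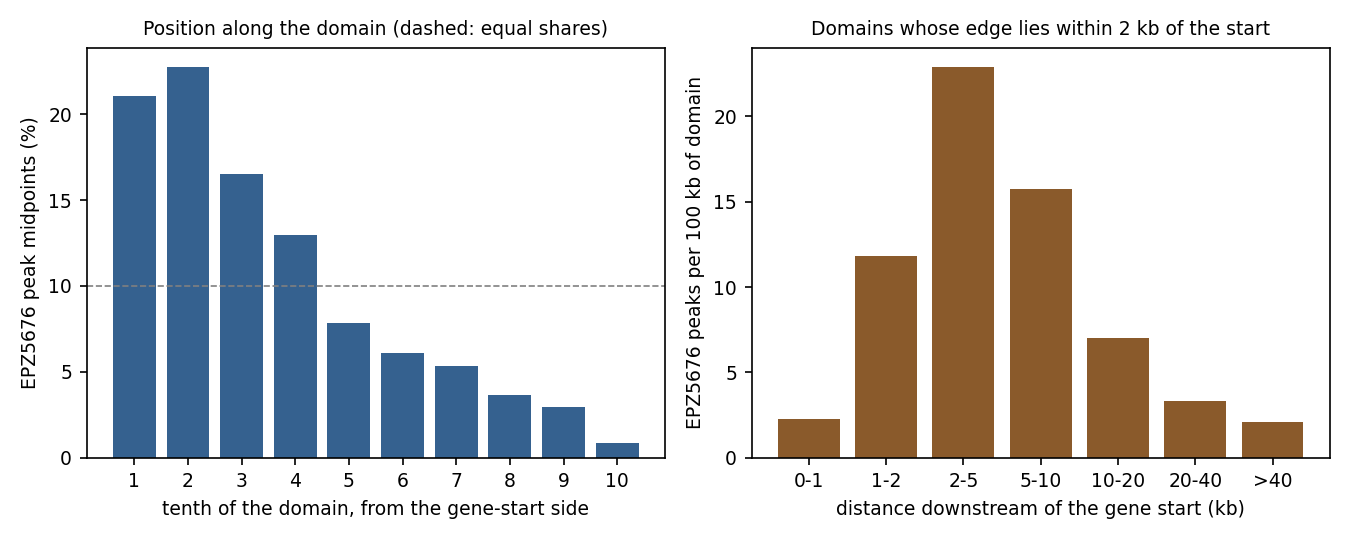
Left, share of 1844 EPZ5676 peak midpoints (vertical axis, percent) in each of 10 equal sections of 673 control domains, from the gene-start side, with a dashed line at equal shares. Right, EPZ5676 peaks per 100 kb of domain by distance from the gene start in kb, in the 523 domains that begin within 2 kb of it, highest at 22.9 between 2 and 5 kb.

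In narrower domains the start-side section also held most peaks, with a smaller share. Of 6329 autosomal control domains of 5 to 20 kb, 1059 kept an EPZ5676 peak (16.7%), and 50.8% of 1249 peak midpoints with known strand lay in the start-side section of 3, against 13.6% in the last. Most of these domains (67.5%) had a single peak, their median control fold was 4.36, and 7.44% of their length remained covered. Whether the difference between 64.7% and 50.8% exceeds replicate error could not be tested. Just above the width limit lay the domains of Stk40 (20011 bp, 1 peak), Stx16 (20064 bp, 3), Hipk1 (20065 bp, 4), Agtpbp1 (20072 bp, 4) and Iqsec1 (20089 bp, 1). Just below it lay Lrrfip1 (19982 bp, 5 peaks), Rnf169 (19938 bp, 5), Adnp2 (19937 bp, 1), Cdip1 (19905 bp, 1) and Tusc3 (19875 bp, 1), and their numbers of peaks overlap those just above.

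Broad domains of both kinds followed single genes closely. All 829 overlapped a protein-coding gene (729 of 744 broad domains without a peak did), 780 of them (94.1%) exactly 1, and 792 (95.5%) were at least 95% inside the gene of largest overlap. Of the 744 without a peak, 684 (91.9%) overlapped exactly 1 and 685 (92.1%) were at least 95% inside. A domain keeping a peak covered a median of 43.4% of that gene, against 32.0% for domains without a peak, and the genes were shorter, with a median length of 83256 bp against 103531 bp. Its edge lay a median of 539 bp inside the gene (quartiles 307 and 1211 bp), and 44 of 673 domains (6.54%) contained the annotated start. Without a peak, 51 of 595 (8.57%) contained it. Domains with an edge within 2 kb of the start made up 523 of 673 (77.7%) of those keeping a peak and 320 of 595 (53.8%) of those without.

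The share of broad domains that kept a peak was lower far inside a gene than at its start. Of broad domains with an edge within 2 kb of the start, 523 of 843 kept a peak (62.0%). Of those farther away, 150 of 425 did (35.3%), and of those over 10 kb inside, 80 of 286 (28.0%). The inner domains were also less enriched, and the part of enrichment in this order was not tested. Among domains in the lowest group by control fold the shares were 39.4% within 2 kb and 22.4% farther away, and in the highest group 82.7% and 70.6%. The highest group had 17 domains over 10 kb inside, of which 14 kept a peak (82.4%), so there the order was not seen. Within single genes the 2 kinds could also be compared. In 77 genes that carried both kinds of domain, a pair of domains shared by overlapping genes was counted once (76 cases). Some genes had several domains of a kind, so the highest control fold of each kind was compared. It was higher for the kind keeping a peak in 72, with medians of 4.77 and 3.26. Order was taken from the domain of lowest coordinate of each kind. By this measure the kind keeping a peak was nearer the start in 58 of 64 with known strand. Klf7, a transcription factor gene, kept peaks in the domain of 48440 bp nearer its start and none in that of 23268 bp farther on.

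The 829 domains had 804 different genes of largest overlap, because 24 genes had more than 1. Stox2 had 3, with 7 EPZ5676 peaks in all. Among those with 2 were Ski (11 peaks in 64143 bp), Tead1 (11 in 142779 bp), Wwc2 (12 in 67663 bp), Ptpn14 (11 in 61896 bp), Rbfox2 (11 in 186932 bp) and Rere (6 in 186019 bp). Of these, Tead1, Wwc2 and Ptpn14 encode a transcription factor, a scaffold and a phosphatase of the Hippo pathway.

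As the background for the gene lists, 13.1% of 20665 autosomal protein-coding genes overlapped an EPZ5676 peak, 4.15% lay under a broad domain that kept one (857 genes) and 3.42% under a broad domain without one (706 genes). Of the genes under any broad domain, 57.7% were under one that kept a peak. Since long genes have more room for a broad domain, the median gene length of each list is given, beside 17491 bp for all genes. The median control fold of the domains over a list is likewise to be read against 5.00 for all 829, and the median number of EPZ5676 peaks against 2.

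Of 25 genes that mark undifferentiated spermatogonia (median length 28164 bp), 3 were under domains keeping a peak, namely Foxo1, a transcription factor gene needed for stem cell maintenance (78012 bp, 2 peaks covering 1568 bp, fold 6.61), and the integrin genes Itga6 (30963 bp, 2 peaks) and Itgb1 (21598 bp, 2 peaks). Zbtb16 and Gfra1, the GDNF co-receptor gene (24365 bp, fold 2.88), had broad domains without any EPZ5676 peak. Of 12 genes of spermatogonial differentiation (33117 bp), 0 were under a domain keeping a peak. Dmrt1, a sex-determination transcription factor gene, had a broad domain of 83039 bp without one. Of 16 genes of germ cell identity and the piRNA pathway (41369.5 bp), 0 were under a broad domain of either kind, although 15 had a control peak.

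Signalling genes were represented by more members. Of 34 genes of GDNF and FGF signalling (median length 57513.5 bp), 13 lay under a domain keeping a peak and 1 (Gfra1) under a broad domain without one only. The widest were Fyn, Spred2, a Ras pathway inhibitor gene (77408 bp, 1 peak of 1470 bp), Grb2, an adaptor gene (58468 bp, 1 peak of 340 bp), and Frs2, the FGF receptor substrate gene (57781 bp, 6 peaks). The median of these domains was 2 peaks and a control fold of 5.42, close to all 829. In insulin and IGF signalling, 4 of 16 genes (73683.5 bp) were under such domains, among them Igf1r and the genes Rptor and Rictor, which encode subunits of mTOR complexes (57497 bp with 4 peaks and 43323 bp with 3). Foxo3 and Igf2r had broad domains of 90112 and 30399 bp without a peak.

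The list with the largest share was TGF-beta, SMAD and BMP signalling, where 13 of 21 genes (70659 bp) were under a domain keeping a peak and 2, Bmpr2 and Acvr2b, under a broad domain without one only. Receptor genes were Bmpr1a (54090 bp, 9 peaks covering 5673 bp), Tgfbr1 (31339 bp, 1 peak), Tgfbr2 (20777 bp, 6 peaks covering 3682 bp), Acvr1 (2 domains with 8 peaks covering 5915 bp in all) and Acvr2a. Signal transducers were Smad1, Smad2 and Smad3 with 1 peak each of 259 to 631 bp. Negative regulators were Ski and Skil, Smad7, and the ubiquitin ligase genes Smurf1 (65519 bp, 10 peaks) and Smurf2 (48434 bp, 6 peaks). The median over these domains was 2 peaks covering 727 bp, beside 1129 bp for all 829. In the Hippo pathway, 3 of 19 genes (73671 bp) were under domains keeping a peak, namely Tead1 (103399 bp, 6 peaks in this domain), Wwc2 (34045 bp, 5) and Vgll4 (31406 bp, 3). There, 5 others, Yap1, Lats2, Stk3, Mob1b and Nf2, had broad domains without one.

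Chromatin regulators formed another large group. Of 35 histone lysine methyltransferase and demethylase genes (62363 bp), 12 were under domains keeping a peak and 4 (Kmt2e, Nsd1, Kdm2a and Kdm7a) under broad domains without one only. Kmt2c, an H3K4 methyltransferase gene, had the widest (62924 bp, 4 peaks), followed by Nsd3 (46766 bp, 3), Ehmt1, an H3K9 methyltransferase gene (33757 bp, 3), and Nsd2, an H3K36 methyltransferase gene (32768 bp), which kept the most with 7 peaks covering 6370 bp. Kmt2a (30997 bp) and Kdm5b (31987 bp) kept 1 peak each, of 266 and 275 bp. Of 38 genes of acetylation and chromatin remodelling (72704 bp), 12 were under such domains and 3 (Ep300, Hdac7 and Chd7) under broad domains without one only. Crebbp, an acetyltransferase gene, kept 10 peaks covering 6640 bp of 63124 bp. Arid1a had a domain of 54788 bp with 7 peaks and Chd6 one of 54658 bp with 2. Of the paired acetyltransferase genes Crebbp and Ep300, the domain of Ep300 was narrower (22785 bp) and of lower fold (4.57 against 6.47). Crebbp also had a broad domain without a peak (20862 bp, fold 3.74).

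DOT1L partners and elongation factors were split evenly, with 3 of 14 (48043 bp) under domains keeping a peak, Ell (38459 bp, 3 peaks), Aff1 (34458 bp, 2) and Ccnt2 (22788 bp, 3), and 3 under broad domains without one, Mllt10 (83204 bp), Mllt1 (32870 bp) and Aff3 (28210 bp). Of 30 splicing and RNA-binding factor genes (16514 bp), 5 were under domains keeping a peak: Rbfox2, Mbnl2 (86040 bp, 2 peaks), Celf1 (59351 bp, 8), Qk (55719 bp, 4) and Mbnl1 (44965 bp, 1). The cell cycle list had 1 of 31 (E2f3, 65823 bp with 3 peaks; median gene length 14347 bp), p53 and cell death 2 of 20 (Bcl2l1 and Sesn1; 22125.5 bp), and cytosolic ribosomal proteins 0 of 38 (3510 bp), all 38 of which had a control peak.

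**Figure D5:**
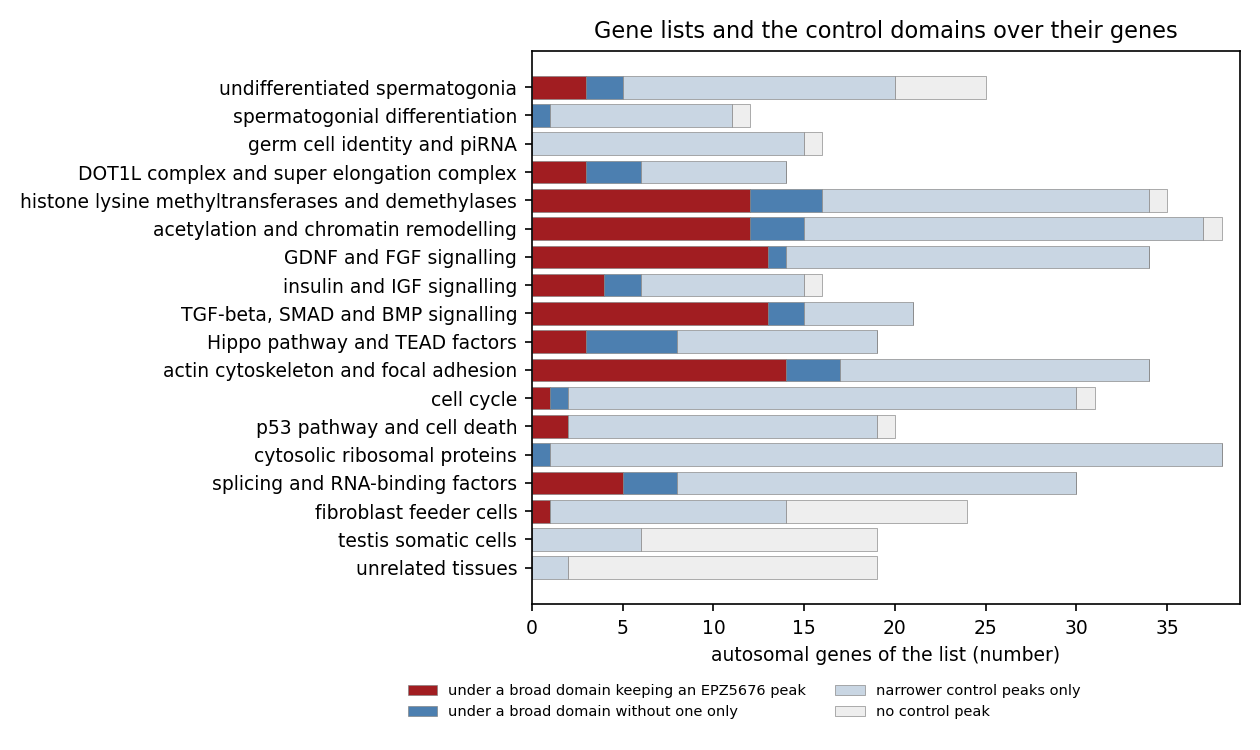
Number of autosomal genes of 18 lists (horizontal axis) by the control domain over them: a broad domain that kept an EPZ5676 peak, a broad domain without one only, narrower control peaks only, or no control peak. TGF-beta, SMAD and BMP signalling has 13 of 21 genes in the first class, and testis somatic cells and unrelated tissues have 0 (median gene lengths 15250 and 10929 bp).

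Actin cytoskeleton and focal adhesion genes, which are also active in fibroblasts, had 14 of 34 (88318.5 bp, the longest median) under domains keeping a peak and 3 (Actn4 and Diaph1 among them) under broad domains without one only. The widest were Trio, Tns3, a tensin gene (52914 bp, 2 peaks), Actn1, an actinin gene (50559 bp, 7 peaks covering 4174 bp), and Lpp (49932 bp, 4). Of 24 genes typical of fibroblast feeder cells (33850.5 bp), 1 was under a domain keeping a peak, Col5a1, a fibrillar collagen gene (42371 bp, fold 3.41, 6 peaks covering 4191 bp). Of the 12 defining fibroblast markers, 9 had a control peak and 4 (Fbn1, Sparc, Twist2 and Prrx1) an EPZ5676 peak, with 8872 bp in all, while Col1a2, Col3a1 and Vim had neither and 0 were under one of the 829 domains. Of the 12 defining spermatogonial stem cell markers, 12 had a control peak, with 447857 bp in all against 55819 bp for the fibroblast markers. Most of the 447857 bp lay at Zbtb16 (168701 bp), Gfra1 (96347 bp) and Foxo1 (78994 bp), whereas Id4 had 1858 bp. The 2 marker sets were not matched for gene length. Of the stem cell markers 1, Foxo1, had an EPZ5676 peak (1568 bp). Of 10 testis somatic cell markers, 3 had a control peak and 0 an EPZ5676 peak. The part of feeder cell chromatin in the remaining peaks was not tested.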

How the data were processed

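H3K79me2 chromatin immunoprecipitation was read from 2 deposited peak lists of 9 columns (mm10), 1 per condition. The submitters' processing notes list bcl2fastq (2.20.0.422), deepTools and Trimmomatic. Aligner, peak caller, replicate pooling and use of inputs: not given in the sources used here; depth is unknown. The fold enrichment (a ratio) and the −log10 p and −log10 q values are the authors' own, and the deposited score is the whole part of 10 times −log10 q in all but 4 peaks. They served only to describe, rank and filter.

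Overlaps of at least 1 bp were computed in Python 3.11.15 with numpy 2.4.6, pandas 2.3.3 and scipy 1.17.1 and tested on simulated data. Protein-coding gene spans and start windows came from RefSeq GRCm38.p6, and strand was known only for genes with a start window. A domain took the gene with the largest overlap. Intervals cover sampling of domains or peaks only. The lowest deposited −log10 p was 2.36 in the control and 4.03 for EPZ5676, and the lowest −log10 q 1.05 and 1.04. Unmapped columns of sample values numbered 0.

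Named by rule were the 10 widest domains, the 10 with most EPZ5676 peaks, the 10 with most covered bases, the 5 with the largest covered share, the 5 of highest control fold, the 5 narrowest, the 5 with the shortest overlap, the 5 widest without a peak, the 5 just under the width limit, and up to 4 genes per list (the widest domains). Further genes named from the lists were chosen after their values were seen. The domains and the 18 gene lists (443 genes) were chosen with earlier results of these data known. A few genes that the rule names are not reported here.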

Additional observations from a re-analysis of the deposited data

How the results depend on the processing

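Requiring an overlap of 100 bp or of 50% of the EPZ5676 peak could change nothing, since every peak lay wholly inside its domain and the narrowest had 147 bp, and holding control peaks to the lowest −log10 p among EPZ5676 peaks removed none of the 1573 broad domains, so these settings say nothing about stability. Counting only genes of largest overlap, or genes touched by the EPZ5676 peak itself, left the 85 list genes. Control peaks wider than 10000 bp gave 1460 domains keeping a peak (37.0%), with 4.70% of length covered, 47.0% with a single peak and 61.1% of peaks in the start-side section; those wider than 30000 bp gave 461 (59.7%), 3.90% and 28.2%. Joining control peaks at most 3000 bp apart gave 1286 (45.6%), 3.32% covered, 61.2% in the start-side section and 99.5% over a protein-coding gene. EPZ5676 peaks of at least 500 bp left 556 domains (35.3%), 4.36% covered, a median of 1 peak, 54.7% with a single peak and 71.1% in the start-side section. The filter on −log10 q of at least 2 changed most: 142 domains (9.03%), 1.77% covered, a median of 1 peak, 86.6% with a single peak, 73.1% in the start-side section and 24 list genes. The start-side section held 61.1 to 73.1% of peaks under the settings tried, and the number of domains was not stable. No paired analysis was possible because there is 1 peak list per condition and no result comes from a test, and for the same reason no replicate could be left out. The unknown depth limits what an absent EPZ5676 peak means: it was not called, which does not show that the mark was gone.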

Other observations

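Besides protein-coding genes, the 829 domains overlapped 125 of 12408 autosomal lncRNA genes (1.01%), 40 of them under an EPZ5676 peak, and 139 (1.12%) lay under broad domains without one. They also held 21 of 931 snRNA genes (2.26%), 17 of 1286 snoRNA genes (1.32%), 10 of 1136 miRNA genes (0.880%) and 80 of 8884 pseudogenes (0.900%), beside 4.15% of protein-coding genes. Broad domains without a peak held 9 snRNA genes (0.967%), 9 snoRNA genes (0.700%), 10 miRNA genes (0.880%) and 55 pseudogenes (0.619%). Of the miRNA genes, 1 was under an EPZ5676 peak, Mir5123 inside B4galt1, a galactosyltransferase gene (chr4:40850056-40850138), and of the snoRNA genes 0 were. EPZ5676 peaks covered 4.26% of the length of the domains, and nothing is read from these 2 counts. The other miRNA genes included Mir7227 inside Arid1a, Mir706 inside Wnk1, a kinase gene, and Mir1192 inside Klf9, a transcription factor gene. Whether these small RNAs are transcribed in the cells is not shown by the mark of their host genes.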
